A study of Mus musculus with 4 samples.

Results

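The genes of the proteasome were followed in cultured colonic ILC2s given vehicle or deoxycholic acid (DCA). They were taken as the rows of the deposited count table whose symbols start with Psma to Psmg followed by a digit, with pseudogene rows (-ps) to be dropped. The rule found 50 of the table's 27179 rows, and it dropped 0 pseudogenes. Of these 50, 48 encode subunits, assembly factors, activators, or an inhibitor of the proteasome. The other 2, Psmc3ip and Psme3ip1, were matched only through their symbols and encode partners named after a subunit. A mean of at least 1 CPM (counts scaled to a library of 1000000 counts) was reached by 48 of the 50, which were the members tested. Psma8, the alpha subunit gene of the testis, had 2 counts in 1 vehicle library and 0 in the others, and Psmb11, the beta subunit gene of the thymic cortex, had 0 in every library.

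The proteasome is the protease that degrades proteins tagged with ubiquitin. Its 20S core is a barrel of alpha and beta rings that holds the proteolytic sites inside, and its 19S cap binds the tagged protein, removes the ubiquitin, and unfolds the chain with a ring of ATPases. In lymphoid cells the constitutive catalytic subunits β5, β1, and β2, from Psmb5, Psmb6, and Psmb7, are partly replaced by the immunoproteasome subunits from Psmb8, Psmb9, and Psmb10, which favor peptides that fit MHC class I molecules.

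ILC2s, innate lymphocytes that secrete type 2 cytokines and carry no antigen receptor, came from the large intestine of C57BL/6J WT mice, were purified by sorting, and spent 5 days in culture with the cytokines IL-33, IL-25, IL-7, and IL-2 at 10 ng/mL each. The vehicle group and the DCA group shared the strain, the sort, and the cytokines, and differed in 100 μM DCA, a secondary bile acid made by gut bacteria. The design text of the series gives 16 hours of treatment and the methods of the study give 24 hours. Each group had 2 libraries, no age was given in the labels, and no label says whether libraries came from separate mice or cultures, so that p-values measure only the spread between these libraries.

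The libraries held 26564059 to 35838342 counts except DCA replicate 2, which held 244165712. All 10 ILC2 markers reached 1 CPM in some library, Thy1 only in DCA replicate 1 (4.24 CPM, with at most 0.0547 CPM elsewhere). Their sum was 11860 to 13031 CPM with vehicle and 14112 to 16556 CPM with DCA, most of it from Il5. Il1rl1 (833 and 877 against 599 and 533 CPM) and Klrg1 (688 and 678 against 463 and 356 CPM) were lower in both DCA libraries. Il5 (8867 and 7727 against 9963 and 12334 CPM) was higher in both DCA libraries. So were Il2ra (1075 and 1231 against 1615 and 1585 CPM) and Il7r (374 and 351 against 583 and 461 CPM). The other ILC2 markers overlapped between treatments. Cd4, Cd8a, Pax5, Cd14, Csf1r, and Krt20, which mark T cells, B cells, myeloid cells, and epithelial cells, were at 0 in every library. Other genes of these lists were counted, and the sums with vehicle and with DCA were 20.6 to 34.7 and 15.9 to 27.4 CPM for 8 T cell markers (4 reached 1 CPM, led by Cd3g), 47.3 to 55.2 and 37.8 to 44.5 CPM for 5 B cell markers (1 did, Cd79b), and 8.29 to 14.3 and 9.01 to 10.6 CPM for 7 epithelial markers (3 did). The 6 mast cell and basophil markers summed to 284 to 363 and 159 to 302 CPM, nearly all from Kit, with Fcer1a and Tpsb2 at 0, and the 5 ILC3 markers to 0 and to 0 to 1.49 CPM. The summed level of 8 macrophage, monocyte, and dendritic cell markers, nearly all from Cd68, was 23.998 to 24.6 CPM with vehicle and 7.31 to 10.2 CPM with DCA. The part of these lists in the results was not tested. In bulk libraries, fewer cells of a type and less RNA per cell cannot be told apart.

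The proteasome genes took 1.36% and 1.53% of all counts in vehicle replicates 1 and 2, and 1.46% and 1.64% in DCA replicates 1 and 2. The share in DCA replicate 1 lay between those of the vehicle libraries. In no library did a tested proteasome gene fall under 413 counts, the count of Psme4 in vehicle replicate 2.

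Short stretches of promoter are shown for 2 constitutive catalytic genes, a structural beta gene, and an activator gene. No stretch of an immunoproteasome gene is shown, since none held the antioxidant or the interferon element searched for here. NRF1 (Nfe2l1), the factor that restores proteasome subunits when the protease is blocked, binds antioxidant response elements. Interferon regulatory factors bind interferon-stimulated response elements. RefSeq promoters on GRCm38.p6, 250 bases before to 50 bases after the start, were matched for 42 of the 50 members. Both strands were searched for the core TGACNNNGC of the antioxidant element and the interferon element, searched as GAAA, any 2 bases, and GAAA again. The capitals mark the match, and each line reads 5′ to 3′ on the strand of the gene.
Psmb5, chr14:54618024-54618052, minus strand: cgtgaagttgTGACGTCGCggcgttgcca
Psmb6, chr11:70525338-70525366, plus strand: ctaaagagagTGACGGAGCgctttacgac
Psmb3, chr11:97703261-97703290, plus strand: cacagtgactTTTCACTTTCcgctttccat
Psme1, chr14:55578493-55578522, plus strand: cgagctgtgcTTTCGCTTTCccttcccgct
The antioxidant core starts 47 bases before the start of Psmb5 and 9 bases before the start used for the Psmb6 promoter. The annotated Psmb6 gene begins at chr11:70525324, so that this match lies inside it. The antioxidant core occurred in 6 of the 42 promoters (14.3%). It occurred in 14.0% of all 27025 genes with a promoter and in 16.9% of the 8806 of them that were tested. The 2 constitutive catalytic genes with a matched promoter, Psmb5 and Psmb6, both held it, and 0 of the 3 immunoproteasome genes did. The interferon core occurred in 5 of 42 (11.9%), against 3.99% of all genes and 3.55% of those tested. It stood in Psmb3, Psmd4, Psmd9, Psmg4, and Psme1, and in 0 of the 3 immunoproteasome genes within this window. The CCAAT box, a general promoter element, occurred in 16 of 42 (38.1%), against 41.1% of all genes and 43.8% of those tested. Of the 7 alpha subunit genes, 5 held it. A match is a description of letters and no measure of binding.

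Whether DCA altered proteasome gene expression was asked by comparing both DCA libraries with both vehicle libraries. No tested member passed an adjusted p of 0.05 in edgeR's quasi-likelihood test (0 of 48), as was true of all genes (0%, 0 of 11184). At an unadjusted p of 0.05 the count was also 0 of 48, where 4.27% of all genes passed. DESeq2 and limma gave 0 members at either threshold as well, while DESeq2 called 128 of all genes after adjustment. The log2 fold change was above 0 for 34 members and below 0 for 14, against 50.7% above 0 among all genes. The median log2 fold change was 0.10 over the members, a 1.07-fold level, and 0.01 over all genes.

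The estimates for single members were small. The log2 fold changes ran from -0.27 for Psme3 to 0.60 for Psmb10, and 1 of 48 exceeded 0.5 in size. Among all genes 39.8% exceeded that size, and among the 4729 genes expressed at or above the mean CPM of the lowest member 17.0% did. These 4729 genes were not matched to the members in level, with a median of 90.9 CPM against 284 CPM. Their median standard error was 0.31, against 0.24 for the members. The 95% interval lay within a log2 change of -1 to 1, a doubling or a halving, for 39 of the 48 members. The median standard error was 0.24, and with 2 libraries per group smaller changes than a doubling lay inside most intervals.

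**Figure D1:**
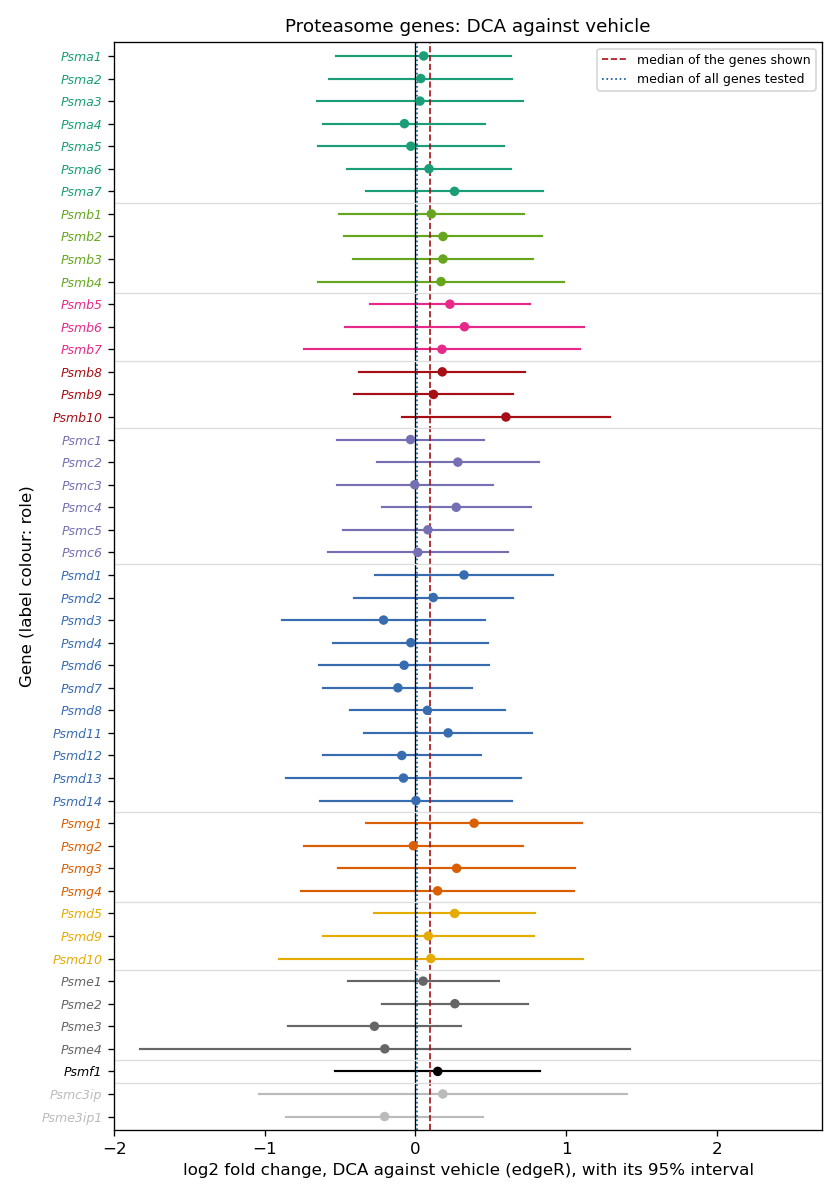
log2 fold change of DCA against vehicle (x axis) for the 48 proteasome genes tested (y axis, grouped and colored by role), with points for the edgeR estimate and bars for its 95% interval, n = 2 libraries per group. Every bar crosses 0, the dashed line marks the members' median of 0.10, and the dotted line marks the median of all genes tested, 0.01.

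In 10 members both DCA libraries lay above both vehicle libraries, where 18.6% of all genes did so. In 2 members both lay below, where 14.7% of all genes did so. The 10 were Psmb5, Psmb9, and Psmb10 of the catalytic subunits, Psmc2, Psmc4, and Psmd11 of the cap, Psmg1, Psmg3, and Psmd5 of the chaperones, and the activator Psme2. The 2 were the cap subunit Psmd7 and the activator Psme3. The first share was close to the background and the second below it.

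The catalytic subunits came first. Psmb10, whose product takes the trypsin-like site in the immunoproteasome, stood at TMM-scaled CPM of 140 and 92.7 in vehicle-treated ILC2s against 185 and 169 after DCA, here and below in the order of replicates 1 and 2. The groups did not overlap, and the lowest value belonged to vehicle replicate 2. The means were 116 ± 33.7 CPM with vehicle and 177 ± 10.99 CPM with DCA (SD, n = 2 each), a log2 fold change of 0.60 with a standard error of 0.29. This 1.52-fold difference had the smallest p of the members, 0.0784 unadjusted and 0.999 adjusted in edgeR's test, and it did not pass. The unadjusted p of Psmb10 in edgeR's test was 0.0195 without vehicle replicate 1, 0.0378 with the replicate block (the replicate number as a term of the fit), and 0.0455 without the filter on low counts. The adjusted p in these edgeR fits was 0.274, 1, and 0.954. Leaving out vehicle replicate 2 brought the Psmb10 estimate to 0.33 (unadjusted p = 0.293 and adjusted p = 0.713, edgeR). Without DCA replicate 1 or 2 it was 0.54 or 0.66, with an unadjusted p of 0.252 or 0.167 and an adjusted p near 1 in edgeR's test.

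Psmb8, the immunoproteasome gene of the chymotrypsin-like site, had the highest mean CPM of any member. In vehicle replicate 2, Psma2 (804 CPM) and Psma7 (733 CPM) were higher. Psmb8 stood at 844 and 708 CPM in vehicle-treated ILC2s against 765 and 991 CPM after DCA. The groups overlapped, since DCA replicate 1 lay between the vehicle libraries. The log2 fold change was 0.18 ± 0.23 (SE). Psmb8 shares 498 exonic bases with Gm20496 on the opposite strand.

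Psmb9, the immunoproteasome gene of the caspase-like site, varied the least of the 6 catalytic genes. It stood at 183 and 202 CPM in vehicle-treated ILC2s against 206 and 214 CPM after DCA. The DCA libraries lay just above the vehicle libraries, by less than the spread between the vehicle libraries at the nearest pair. Its log2 fold change was 0.12 ± 0.22 (SE). Exons of Psmb9 overlap those of the peptide transporter gene Tap1 on the opposite strand over 212 bases, and the strand setting of the counting is not given in the sources used here.

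Of the constitutive partners, none passed either threshold. Psmb5, the chymotrypsin-like subunit, stood at 253 and 222 CPM in vehicle-treated ILC2s against 262 and 295 CPM after DCA. The groups did not overlap, and the log2 fold change of 0.23 ± 0.22 (SE) had an unadjusted p of 0.336 in edgeR's test. Psmb5 shares 109 exonic bases with the microRNA gene Mir686 on the same strand. Psmb6, the caspase-like subunit, stood at 341 and 514 CPM in vehicle-treated ILC2s against 405 and 666 CPM after DCA. The groups overlapped, and the highest value was that of DCA replicate 2. Psmb7, the trypsin-like subunit, stood at 126 and 267 CPM in vehicle-treated ILC2s against 200 and 244 CPM after DCA. Here both DCA libraries lay between the vehicle libraries, which differed by 1.08 on the log2 scale. The log2 fold change of Psmb7 was 0.18 ± 0.38 (SE), and without vehicle replicate 2 it rose to 0.82 (unadjusted p = 0.0310 and adjusted p = 0.412, edgeR), while without vehicle replicate 1 it was -0.29. Psmb7 shares 405 exonic bases with Nek6 on the opposite strand.

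**Figure D2:**
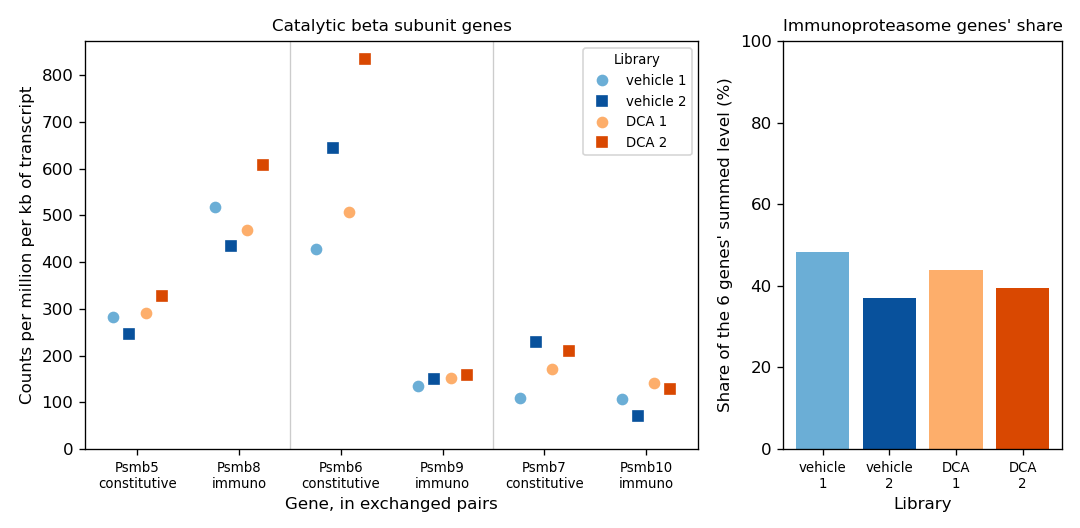
Left, CPM per kb of transcript (y axis) of the 6 catalytic beta subunit genes (x axis, each constitutive gene beside the immunoproteasome gene that replaces it), 1 point per library. Right, the share of the 6 genes' summed CPM per kb that came from the immunoproteasome genes in each library, which ran from 36.9% to 48.2% in the vehicle libraries and lay between these values in both DCA libraries.

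Divided by transcript length, the levels of the exchangeable pairs could be set side by side. Per kb, Psmb8 was 1.84 and 1.76 times the level of Psmb5 in vehicle replicates 1 and 2, and 1.61 and 1.85 times in DCA replicates 1 and 2. Psmb8 was thus the higher member of its pair in all 4 libraries. Psmb9 per kb was 0.317 and 0.233 times the level of Psmb6 with vehicle, and 0.299 and 0.189 times with DCA, so that the constitutive gene was the higher one in all 4. Psmb10 per kb was 0.984 and 0.308 times the level of Psmb7 with vehicle, and 0.817 and 0.613 times with DCA. In this pair the ratio spread more between the vehicle libraries than between any of them and the DCA libraries.

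The shift between constitutive and immunoproteasome genes was tested as the log2 ratio of their counts in each library. The difference, DCA minus vehicle, was -0.06 ± 0.10 (SE) for Psmb8 to Psmb5, -0.19 ± 0.40 for Psmb9 to Psmb6, and 0.36 ± 0.86 for Psmb10 to Psmb7. The two-sided exact permutation p was 1, 0.667, and 1 (adjusted 1 for all 3, n = 2 per group). With 2 libraries against 2 this test cannot go below 0.3333. All 3 differences were smaller than their standard errors, and each changed sign when some single library was left out.

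Summed per kb, the 3 immunoproteasome genes made up 48.2% and 36.9% of the 6 catalytic genes with vehicle and 44.0% and 39.5% with DCA. The DCA values both lay inside the range of the vehicle values. Immunoproteasome genes were thus a sizable part of the catalytic transcripts in every library.

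The rest of the 20S core was abundant. The 7 alpha subunit genes, which form the gated outer rings, ranged from 242 to 854 CPM, and the 4 structural beta genes from 177 to 741 CPM. Psma7 had the highest mean level of any member per kb of transcript, at 770 CPM per kb. This rank depends on the length used. With the exons of a gene's transcripts merged, Psma7 stood at 596 CPM per kb and Psmb2 was highest at 707. The log2 fold changes of the alpha genes ran from -0.07 for Psma4 to 0.26 for Psma7 with a median of 0.04, and those of the structural beta genes from 0.11 for Psmb1 to 0.18 for Psmb2 with a median of 0.18. The groups overlapped in all 11 of these genes, as they did in 66.7% of all genes tested. All 17 genes of the core together had 15 log2 fold changes above 0 and a median of 0.17.

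**Figure D3:**
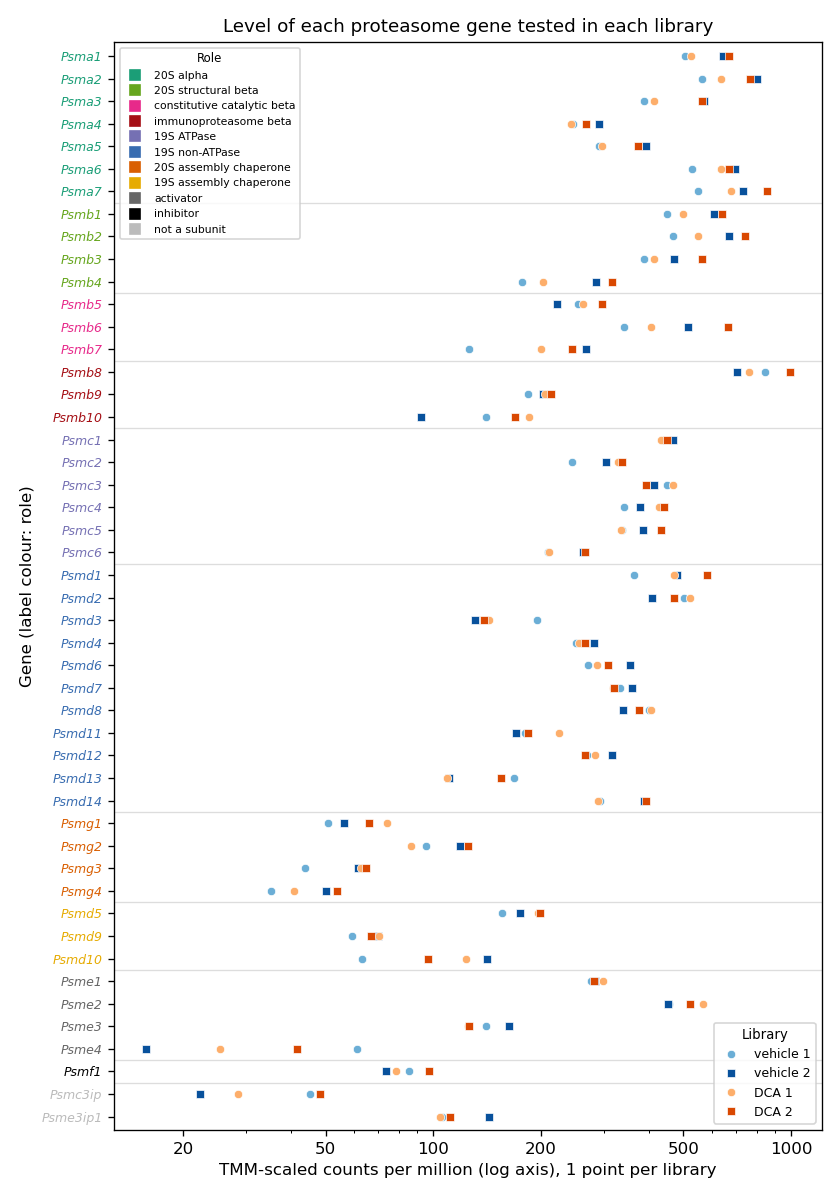
TMM-scaled CPM (x axis, log scale) of the 48 proteasome genes tested (y axis, grouped and colored by role), 1 point per library. In the alpha and structural beta genes the squares of vehicle replicate 2 and DCA replicate 2 sit to the right of the circles of vehicle replicate 1 and DCA replicate 1.

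Among the alpha and structural beta genes, libraries of the same treatment stood apart in the same direction. All 7 alpha genes and all 4 structural beta genes were higher in vehicle replicate 2 than in vehicle replicate 1, and all 11 were higher in DCA replicate 2 than in DCA replicate 1. Over the alpha genes the median of these differences was 0.42 on the log2 scale between the vehicle libraries and 0.33 between the DCA libraries, against a median fold change of 0.04 between treatments. Psma1 shows it, at 504 and 643 CPM in vehicle-treated ILC2s against 524 and 668 CPM after DCA. Apart from the 6 catalytic genes and Psmg1, Psme3, and Psmd7, every member whose values are given, Psma1 and those in the paragraphs on the cap, the chaperones, and the activators included, was chosen after its values were seen. A rule picked Psmg1, Psme3, and Psmd7 by their values, as having the largest changes among members whose groups did not overlap. Their lack of overlap therefore follows from the rule.

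Over all 48 members, 35 were higher in vehicle replicate 2 than in vehicle replicate 1 (72.9%, against 47.9% of all genes) and 36 were higher in DCA replicate 2 than in DCA replicate 1 (75.0%, against 51.7%). Both held for 30 members (62.5%, against 26.6% of all genes and 30.7% of the 4729 genes at or above the lowest member's mean CPM). Members share libraries, so these counts describe the 4 libraries and are not replicates. The median difference between the vehicle libraries was 0.23 over the members and -0.03 over all genes. DCA replicate 2 was the deepest library, and vehicle replicate 2 the shallowest. Transcript length had a Spearman correlation across the 48 members of -0.30 with the difference between the vehicle libraries, of -0.20 with that between the DCA libraries, and of -0.36 with the fold change, against -0.14, -0.07, and -0.12 across 9588 genes. These correlations describe genes that share the same libraries, and the part of length in the fold changes was not tested.

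**Figure D4:**
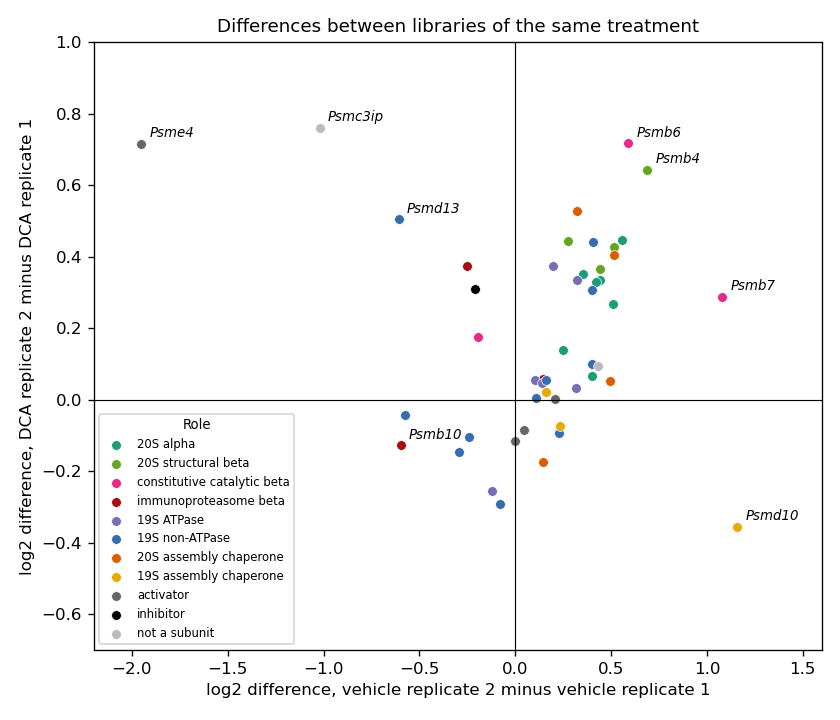
Difference between the vehicle libraries (x axis) and between the DCA libraries (y axis), each as replicate 2 minus replicate 1 on the log2 scale, 1 point per tested proteasome gene colored by role. In 30 of the 48 genes both differences are above 0, including every alpha and structural beta gene, and Psme4 lies far to the left.

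The 17 genes of the 19S cap had a median difference of 0.14 on the log2 scale between the vehicle libraries and of 0.05 between the DCA libraries. The 6 ATPase genes of the cap, Psmc1 to Psmc6, whose products thread the substrate into the core, ranged from 209 to 467 CPM and had a median log2 fold change of 0.05. The largest difference among them was that of Psmc2, at 244 and 304 CPM in vehicle-treated ILC2s against 329 and 337 CPM after DCA. Its groups did not overlap, and its log2 fold change was 0.28 ± 0.22 (SE). Psmc4 followed, at 342 and 377 CPM in vehicle-treated ILC2s against 427 and 441 CPM after DCA, with a log2 fold change of 0.27 ± 0.20 (SE).

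The 11 non-ATPase genes tested, which encode the scaffold, the ubiquitin receptors, and the deubiquitinase of the cap, split into 5 above 0 and 6 below 0, with a median log2 fold change of -0.03. Psmd7, the partner of the deubiquitinase, stood at 332 and 358 CPM in vehicle-treated ILC2s against 318 and 319 CPM after DCA. Both DCA libraries were lower, by a log2 fold change of -0.12 ± 0.20 (SE). Psmd14, the deubiquitinase that frees ubiquitin from the substrate, stood at 292 and 387 CPM in vehicle-treated ILC2s against 288 and 392 CPM after DCA. Its log2 fold change was 0.003, while its libraries of one treatment differed by 0.41 and 0.44. Psmd1, the large scaffold of the cap base, had the highest estimate of the 11, at 363 and 479 CPM in vehicle-treated ILC2s against 471 and 583 CPM after DCA, with a log2 fold change of 0.32 ± 0.24 (SE). Psmd3 had the lowest, -0.21, with 195 CPM in vehicle replicate 1 and 131 to 143 CPM in the other 3 libraries. Psmd1 shares 301 exonic bases with Gm21972 on the same strand and 252 with Htr2b on the opposite strand.

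The assembly chaperones were present at lower CPM. Psmg1 to Psmg4, which build the alpha ring, ranged from 35.2 to 125 CPM. Psmg1 stood at 50.8 and 56.3 CPM in vehicle-treated ILC2s against 74.4 and 65.95 CPM after DCA. The groups did not overlap, and the log2 fold change of 0.39 ± 0.30 (SE) had an unadjusted p of 0.233 in edgeR's test. The 3 chaperones of the cap base, Psmd5, Psmd9, and Psmd10, ranged from 59.4 to 199 CPM and had log2 fold changes of 0.26, 0.09, and 0.10. Psmd10, also known as gankyrin, differed most between the vehicle libraries, with 63.4 and 141 CPM, and both DCA libraries (123 and 96.3 CPM) fell between these. Psmd9 overlaps the gene Gm26745 on the opposite strand over 1849 exonic bases, so its counts are uncertain.

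The activators open the core without ubiquitin. Psme1 and Psme2 encode the 2 chains of PA28αβ, which accompanies the immunoproteasome. Psme1 stood at 275 and 284 CPM in vehicle-treated ILC2s against 298 and 281 CPM after DCA, with overlapping groups. Psme2 stood at 454 and 454 CPM in vehicle-treated ILC2s against 566 and 523 CPM after DCA, without overlap, and its log2 fold change was 0.26 ± 0.20 (SE). Per kb, Psme2 was 1.91 and 1.85 times the level of Psme1 with vehicle and 2.196 and 2.151 times with DCA, so that both DCA libraries had the higher ratio. This ratio was not among the planned pairs and was not tested. Psme2 has a near-identical copy, Psme2b, which was not analysed here, so the split of reads between them is uncertain.

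Psme3, which encodes the nuclear activator PA28γ, had the lowest fold change of all members. It stood at 140 and 162 CPM in vehicle-treated ILC2s against 125 and 125 CPM after DCA, for a log2 fold change of -0.27 ± 0.24 (SE) with an unadjusted p of 0.295 in edgeR's test. Both DCA libraries were below both vehicle libraries. Psme4, the gene of the activator PA200, stood at 61.1 and 15.8 CPM in vehicle-treated ILC2s against 25.3 and 41.5 CPM after DCA. It had the lowest level per kb of the members tested and the widest interval, from -1.83 to 1.42. Psmf1, the gene of the inhibitor PI31, stood at 85.3 and 73.7 CPM in vehicle-treated ILC2s against 78.7 and 97.6 CPM after DCA, with overlapping groups and a log2 fold change of 0.15.

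The 2 genes that share only the symbol pattern gave overlapping groups. Psmc3ip, a recombination factor, ranged from 22.4 to 48.3 CPM with a log2 fold change of 0.18, and Psme3ip1, a partner of PA28γ, from 104 to 143 CPM with a log2 fold change of -0.20.

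Genes that work with the proteasome were read as 4 lists, and none of their tested members passed an unadjusted p of 0.05 in edgeR's test, where 4.27% of all genes did. Of 19 partners such as shuttle factors, ubiquitin ligases, and the maturation factor POMP, 18 were tested, 8 above 0 and 10 below 0, with a median log2 fold change of -0.04. Vcp, the ATPase that extracts ubiquitinated proteins for degradation, stood at 595 and 569 CPM in vehicle-treated ILC2s against 847 and 695 CPM after DCA, without overlap. Its log2 fold change was 0.41 ± 0.21 (SE), with an unadjusted p of 0.0981 in edgeR's test. Ecpas, a proteasome-bound scaffold, stood at 80.0 and 110 CPM in vehicle-treated ILC2s against 54.8 and 70.0 CPM after DCA, for a log2 fold change of -0.61 ± 0.31 (SE). Pomp, the chaperone that completes the core, stood at 295 and 413 CPM in vehicle-treated ILC2s against 378 and 397 CPM after DCA, with overlapping groups. Of the 18 partners, 2 were higher and 2 lower in both DCA libraries, against 18.6% and 14.7% of all genes. The genes shown from each of the 4 lists are examples.

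The 9 regulators of proteasome genes had 3 log2 fold changes above 0 and a median of -0.13. In both DCA libraries 2 were higher (Nfe2l1 and Ddi2) and 2 lower (Stat3 and Syvn1), against 18.6% and 14.7% of all genes. Nfe2l1, the gene of NRF1, stood at 18.4 and 19.3 CPM in vehicle-treated ILC2s against 25.9 and 21.1 CPM after DCA, for a log2 fold change of 0.32 ± 0.47 (SE). Irf1, which drives immunoproteasome genes after interferon, stood at 247 and 62.4 CPM in vehicle-treated ILC2s against 141 and 99.5 CPM after DCA. Both DCA libraries of Irf1 lay between the vehicle libraries. Nlrc5, the activator of MHC class I genes, stood at 86.9 and 50.8 CPM in vehicle-treated ILC2s against 62.6 and 63.4 CPM after DCA, also between them.

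The 6 genes tested of ubiquitin and its activation had 2 log2 fold changes above 0 and a median of -0.05. Ubb, a polyubiquitin gene, stood at 878 and 997 CPM in vehicle-treated ILC2s against 1006 and 1273 CPM after DCA, and Uba1, the main ubiquitin-activating enzyme, stood at 346 and 258 CPM in vehicle-treated ILC2s against 236 and 209 CPM after DCA. Both had groups apart, in opposite directions. In both DCA libraries 1 of the 6 was thus higher and 1 lower, against 18.6% and 14.7% of all genes. The 9 genes of class I peptide loading, which take up the peptides the proteasome makes, had 7 above 0 and a median of 0.09. Tap1, a chain of the peptide transporter, stood at 230 and 174 CPM in vehicle-treated ILC2s against 189 and 122 CPM after DCA. B2m, the light chain of class I molecules, stood at 2825 and 3354 CPM in vehicle-treated ILC2s against 3009 and 3640 CPM after DCA. The groups overlapped in all 9 class I genes, against 66.7% of all genes tested.

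**Figure D5:**
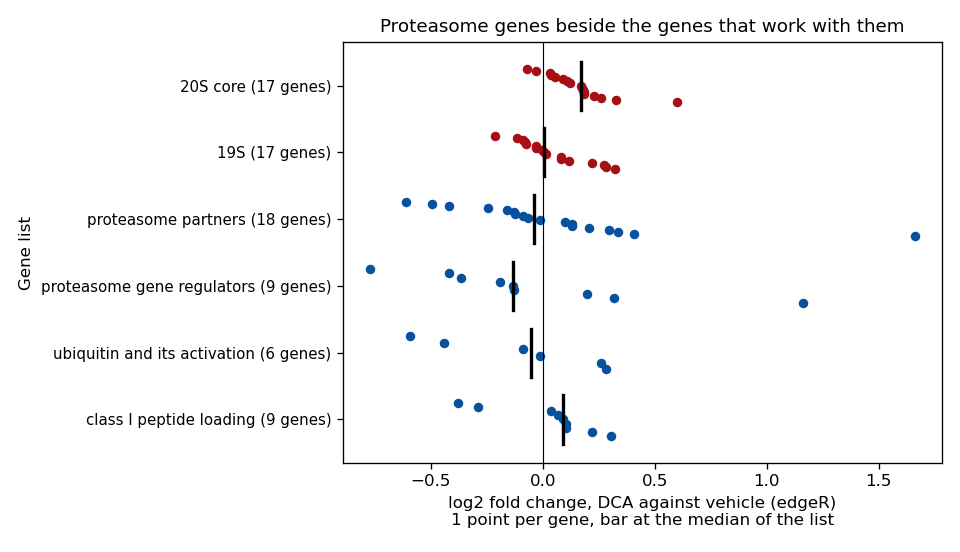
log2 fold change of DCA against vehicle (x axis) for the genes of the 20S core, the 19S cap, and 4 lists of genes that work with the proteasome (y axis), 1 point per gene and a bar at each median. The medians lie between -0.13 for the regulators and 0.17 for the core, and the point at 1.66 is Ubqln2, a shuttle factor with at most 5.89 CPM in any library.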

How the data were processed

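RNA-Seq was analysed in 2 vehicle and 2 DCA libraries, assigned by their labels and column names. The authors made SMART-Seq HT cDNA and sequenced it in pairs. Their processing notes list Cutadapt 1.9, HISAT2 2.2.1, and the mm10 build, and the study names DESeq2. The deposited values are raw read counts per gene (all whole numbers), despite a table name that mentions FPKM. The counting tool, annotation, and strand setting are not given in the sources used here. Rows without a symbol (1275) held at most 0.173% of a library and stayed in library sizes.

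Counts were scaled by TMM and tested with edgeR 4.0.16 in R 4.3.3 (quasi-likelihood test, two-sided, Benjamini-Hochberg over the 11184 genes whose mean reached 1 CPM). Standard errors were derived from the test statistic. Levels per kb used the length of GENCODE vM21 transcripts. Alternatives used limma 3.58.1, DESeq2 1.42.0, other scalings and filters, a replicate block, DCA replicate 2 thinned to 31501544 counts, and each library left out.

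The members and lists were chosen with earlier results of these data known. By the rule set for the text, values in every library were given for the 6 catalytic genes, for members with an unadjusted p under 0.05, and for the 2 members per direction with the largest change among those whose groups did not overlap. Values of further members, chosen after they were seen, were added. Some items are not reported here.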

Additional observations from a re-analysis of the deposited data

How the results depend on the processing

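No member passed an adjusted p of 0.05 in edgeR's test or in any of the 12 alternatives, while the count over all genes, 0 as reported, was 128 with DESeq2, 36 without a filter, and 20 without vehicle replicate 1. The count at an unadjusted p of 0.05, 0 as reported, became 1 (Psmb10) without a filter on low counts and 1 (Psmb10) with the replicate block. With single libraries left out it ran from 0 to 1, where Psmb10 passed without vehicle replicate 1 and Psmb7 without vehicle replicate 2. The median log2 fold change of the members, 0.10 as reported, ran from -0.050 to 0.20 with 1 library left out. Leaving out vehicle replicate 1 gave -0.018 and leaving out DCA replicate 2 gave -0.050, with 24 and 20 of the 48 members above 0. Leaving out vehicle replicate 2 or DCA replicate 1 gave 0.20, with 39 and 37 above 0. Under the other 8 alternatives the median stayed between 0.067 and 0.11. With 1 library left out, the pair difference of Psmb8 to Psmb5 ran from -0.16 to 0.042 (above 0 without DCA replicate 1). That of Psmb9 to Psmb6 ran from -0.52 to 0.14 (0.034 when vehicle replicate 1 was left out, 0.14 when DCA replicate 2 was). That of Psmb10 to Psmb7 ran from -0.48 to 1.20 (below 0 without vehicle replicate 2). Among named members the log2 fold change ran from -0.076 to 0.65 for Psmb6, from -0.29 to 0.82 for Psmb7, and from -0.019 to 0.35 for Psmb8. Psmb10 ran from 0.33 to 0.90, the lowest when vehicle replicate 2 and the highest when vehicle replicate 1 was left out. Without vehicle replicate 1, Psmb9 was 0.024 and Psmd7 -0.20. Without vehicle replicate 2, Psmb9 was 0.19, Psmb5 0.14, Psme3 -0.16, and Psmd7 -0.060, and without DCA replicate 2, Psmb5 was 0.14. The log2 fold change was below 0 for Psmb7 without vehicle replicate 1, and for Psmb6 and Psmb8 without DCA replicate 2. The cause was not tested. In these fits the group with 1 library left is assumed to vary like the other group. Same-numbered libraries are not known to be paired, and the correlation of their deviations was 0.020 over all genes and -0.083 over the members. A correlation across genes leaves out any shift they share, and 30 of the 48 members were higher in replicate 2 of both groups. The correlation therefore cannot decide whether the libraries are paired. The replicate block changed no other call.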

Other observations

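Paaf1, a gene of the partner list, was not analysed here. The summed level of the 46 subunits and factors tested was 13197 and 15374 CPM in vehicle-treated ILC2s against 14364 and 16513 CPM after DCA. The DCA and vehicle libraries thus overlapped.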
